A study of Mus musculus with 6 samples.

Results

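The genes described here encode the proximal machinery of the T-cell receptor, namely Cd3d, Cd3e, Cd3g, Cd247, Lck, Zap70, Lat, Lcp2 and Themis. They were taken by name from the deposited table, and all 9 were found among its 55487 genes. The table holds RNA-seq data of LSKs (Lin- Sca-1+ c-Kit+ cells), the bone marrow fraction that contains hematopoietic stem cells and multipotent progenitors, from irradiated mice. There were 3 libraries from wild-type mice (Tespa1+/+) and 3 from Tespa1-null mice (Tespa1-/-), and the comparison asks which transcripts change in irradiated LSKs when Tespa1 is deleted. All mice, in both groups, received 5.0 Gy of total body irradiation, and RNA was taken at day 13. They were males aged 8 to 10 weeks, and the null allele (tm1Smoc) was carried on a C57BL/6 background. The allele is present from the germline in every tissue, so that other cells of the marrow carry it too. Whether each library came from 1 mouse or from pooled mice is not given in the sources used here, and the p-values measure only the spread between these libraries.

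In a T cell, the antigen receptor has no signalling activity of its own. It rests in a complex with the CD3 chains (delta, epsilon and gamma) and the zeta chain CD247, whose cytoplasmic tails hold tyrosine motifs. LCK, a kinase of the SRC family, phosphorylates these motifs, ZAP70 docks on them and phosphorylates the adaptors LAT and SLP-76 (encoded by Lcp2), and phospholipase C gamma is recruited to open the calcium and RAS arms. THEMIS binds the LAT complex in thymocytes, and TESPA1 was described as a partner of the same signal in positive selection. Several of these proteins are not limited to T cells, since SLP-76 works in platelets, mast cells and neutrophils and LAT in platelets and mast cells. An antibody against CD3e was part of the lineage cocktail used for LSKs, so that cells with surface CD3 are gated out by design.

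The promoters of 4 genes are shown because these genes span the results below, from the most abundant (Lcp2) to one almost lost in Tespa1-/- libraries (Zap70). Each line gives up to 250 bases before the RefSeq start on the GRCm38.p6 build, 5′ to 3′ on the strand of the gene, with bases inside annotated exons left out. Capitals mark 4 motifs that were searched by their letters on both strands. For the ETS motif the letters were ACTTCCT, for RUNX TGTGGT, for GATA factors AGATAA and for the E-box CAGCTG, each also read as its reverse complement. The windows are chr11:34046678-34046919 (plus strand) for Lcp2, chr7:126369571-126369818 (minus strand) for Lat, chr4:129573642-129573891 (minus strand) for the upstream start of Lck and chr1:36761548-36761797 (plus strand) for the first start of Zap70.
Lcp2: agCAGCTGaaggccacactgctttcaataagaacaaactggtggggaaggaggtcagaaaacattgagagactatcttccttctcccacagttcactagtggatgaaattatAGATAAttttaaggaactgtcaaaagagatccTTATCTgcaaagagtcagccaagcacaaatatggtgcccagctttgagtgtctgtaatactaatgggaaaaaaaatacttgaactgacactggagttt
Lat: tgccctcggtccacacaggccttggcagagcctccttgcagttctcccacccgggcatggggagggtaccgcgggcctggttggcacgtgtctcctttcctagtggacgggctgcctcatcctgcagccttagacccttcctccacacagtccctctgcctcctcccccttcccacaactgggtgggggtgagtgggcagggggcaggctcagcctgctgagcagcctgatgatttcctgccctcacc
Lck: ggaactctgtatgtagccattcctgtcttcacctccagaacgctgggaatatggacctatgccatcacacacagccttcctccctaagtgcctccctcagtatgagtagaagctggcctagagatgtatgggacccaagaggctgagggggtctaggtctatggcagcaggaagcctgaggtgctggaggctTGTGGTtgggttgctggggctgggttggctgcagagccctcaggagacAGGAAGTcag
Zap70: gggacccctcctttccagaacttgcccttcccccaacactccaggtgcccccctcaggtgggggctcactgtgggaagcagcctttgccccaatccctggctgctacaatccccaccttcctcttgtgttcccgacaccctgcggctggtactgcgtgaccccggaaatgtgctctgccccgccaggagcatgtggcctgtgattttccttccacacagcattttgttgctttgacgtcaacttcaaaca
The Lcp2 window holds GATA letters at 138 and 106 bases and E-box letters at 248 bases before the start. The Lck window holds RUNX letters at 58 bases and ETS letters at 10 bases before the start. Those shown for Lat and Zap70 hold none of the 4, but a second annotated start of Zap70 (window chr1:36764265-36764514, not shown) has RUNX letters 75 bases before it, and that of Lck has ETS letters 114 bases before it. Over all 32817 promoters of this length, 7.7% hold the ETS letters, 14% RUNX, 10.0% GATA and 13% E-box, and a match is a description of the letters only.

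The libraries held from 12856630 to 30576981 counts, and the first principal component (78.9% of the variance) separated the genotypes. Tespa1 itself fell to counts of 261, 207 and 176 in Tespa1-/- libraries from 626, 1033 and 533 in Tespa1+/+ libraries (edgeR log2 fold change -1.23, SE 0.07, adjusted p 7.0e-06). The Tespa1-/- libraries thus kept 0.425 of the Tespa1+/+ level, and which part of the gene the allele removes is not given in the sources used here. A gene was called where its fold passed 1.5 and its adjusted p was under 0.05. By this rule 5099 of 15332 genes tested (33.3%) were called, 2148 (14%) of them higher and 2951 (19.2%) lower in Tespa1-/- libraries. These counts carry no correction for gene length, and in simulated data a length trend left uncorrected added false calls. The LSK identity genes Kit, Cd34, Slamf1, Procr, Mecom, Hlf and Meis1 were called lower, Ly6a (Sca-1) was not (log2 fold change -0.32, edgeR adjusted p 0.109), and all were counted in every library. With the correction for gene length described below, Kit (-0.56) and Cd34 (-0.46) were not called and Ly6a was called lower (-0.67, adjusted p 0.00891). All 10 neutrophil markers were called higher, and their summed level was 1253 to 1404 CPM in Tespa1+/+ and 2917 to 3300 CPM in Tespa1-/- libraries. Most of this sum was Elane (1355 against 2522 FPKM), whereas the median log2 fold change of the list was 5.99. Ngp (0.213 against 56.8 FPKM) and Ltf (0.0322 against 8.46 FPKM) were near 0 in Tespa1+/+ libraries. These genes entered the test through the Tespa1-/- libraries, so that a rise in them was built into the selection.

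Of the 9 receptor genes, 3 (Lck, Zap70 and Cd247) were called lower in Tespa1-/- LSKs, where 19.2% of all genes tested were called lower and 33.3% in either direction, and 0 were called higher. Another 2 (Lcp2 and Lat) passed the adjusted p with a fold under 1.5, and 4 (Cd3d, Cd3e, Cd3g and Themis) had too few counts to be tested. In all 5 genes tested, every Tespa1-/- library lay below every Tespa1+/+ library, against 34.6% of all genes tested that did so in this direction and 69.1% in either. Zap70 and Cd247 passed the filter on low counts only through the Tespa1+/+ libraries, so that a difference in them was built into the selection and the count over tested genes carries no weight beyond this description. The median log2 fold change of the 5 was -0.87, and that of all genes tested was -3e-04. In counts scaled to a common library size with TMM factors (CPM), the 9 genes together amounted to 87.8 to 89.4 CPM in Tespa1+/+ libraries and 58.1 to 62.7 CPM in Tespa1-/- libraries. Most of this was Lcp2, with 68.5% to 68.8% of the sum in Tespa1+/+ and 73.1% to 74.6% in Tespa1-/- libraries.

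**Figure D1:**
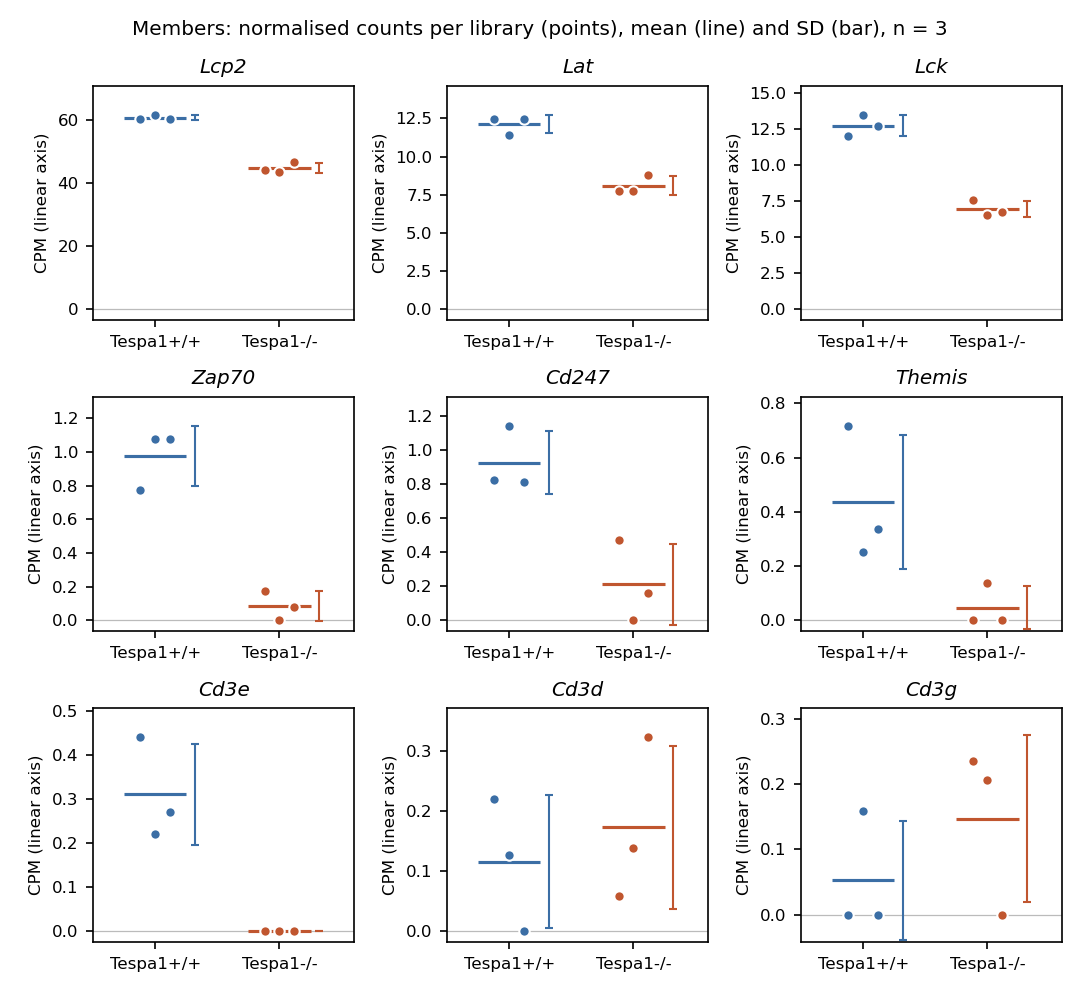
Normalised counts (CPM, linear axis, 1 scale per gene) of the 9 receptor genes in each library (points), with the group mean (line) and SD (bar), n = 3. Lcp2, Lat, Lck, Zap70, Cd247, Themis and Cd3e lie lower in every Tespa1-/- library, while the groups overlap for Cd3d and Cd3g, and the lower 2 rows are on scales near or under 1 CPM.

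Lcp2 (ENSMUSG00000002699, chr11:34046920-34092295) encodes SLP-76, the adaptor on which the signalling complex of LAT is assembled. Its counts were 1096, 1943 and 894 in Tespa1+/+ libraries and 753, 630 and 578 in Tespa1-/- libraries, or 60.7 ± 0.698 and 44.7 ± 1.67 CPM (SD, n = 3 each). The groups were clearly apart and tight, but the change was small. The log2 fold change was -0.44 (SE 0.05, edgeR adjusted p 1.38e-04), a 1.36-fold lower level, and therefore not a call. A non-coding gene on the other strand, 4930469K13Rik, overlaps 282 exon bases of Lcp2 and had 0 counts in all 6 libraries.

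Lat (ENSMUSG00000030742, chr7:126363824-126369570) encodes the membrane scaffold that ZAP70 phosphorylates. It was counted 226, 361 and 185 times in Tespa1+/+ libraries and 132, 112 and 109 times in Tespa1-/- libraries, or 12.1 ± 0.594 against 8.08 ± 0.611 CPM (SD, n = 3 each). All Tespa1-/- values were below all Tespa1+/+ values. The fold of 1.4985 (log2 fold change -0.58, SE 0.09, edgeR adjusted p 0.00125) was just under the limit of 1.5. Lat was called lower with total counts only (-0.68), with DESeq2 (-0.59) and with the length correction described below (-0.72).

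Lck (ENSMUSG00000000409, chr4:129548344-129573641), the kinase that starts the cascade, fell 1.83-fold. Tespa1+/+ libraries had counts of 219, 426 and 189 and Tespa1-/- libraries of 129, 95 and 84, or 12.8 ± 0.717 and 6.96 ± 0.541 CPM (SD, n = 3 each). The log2 fold change was -0.87 (SE 0.10, edgeR adjusted p 1.93e-04), and the highest Tespa1-/- library (7.57 CPM) lay below the lowest Tespa1+/+ library (12.1 CPM). This was the best supported of the 3 calls: it held in every alternative run, also when the fold itself was tested against 1.5 (adjusted p 0.0171).

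Zap70 (ENSMUSG00000026117, chr1:36761798-36782818), the kinase that docks on phosphorylated CD3 and zeta chains, was low in Tespa1+/+ LSKs and close to 0 in Tespa1-/- LSKs. There were 14, 34 and 16 counts in Tespa1+/+ libraries and 3, 0 and 1 in Tespa1-/- libraries. The mean levels were 0.976 ± 0.177 and 0.0856 ± 0.0882 CPM (SD, n = 3 each), and the log2 fold change was -3.34 (SE 0.56, edgeR adjusted p 0.00147). Summed over libraries, 64 counts stood against 4, a ratio of 0.0919 (95% exact binomial interval 0.0243 to 0.247, counting error only). The size of the change depended on single libraries, with -4.48 without Tespa1-/- replicate 1 and -2.79 without Tespa1-/- replicate 2, and Zap70 was called in each case. For comparison, 3 counts corresponded to 0.0950 to 0.242 CPM in a single library, so that Tespa1-/- values were at this floor.

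Cd247 (ENSMUSG00000005763, chr1:165788681-165877277), the zeta chain, was at a similar level, with counts of 15, 36 and 12 in Tespa1+/+ libraries and 8, 0 and 2 in Tespa1-/- libraries. Its level was 0.925 ± 0.186 and 0.210 ± 0.239 CPM (SD, n = 3 each), and the log2 fold change was -2.05 (SE 0.63, edgeR adjusted p 0.0245). The Tespa1-/- libraries were scattered between 0 and 0.470 CPM, and the call was lost without Tespa1+/+ replicate 2 (-1.81, adjusted p 0.0842) or without Tespa1-/- replicate 3 (-1.89, adjusted p 0.0731). Without Tespa1-/- replicate 1 the change was -3.55. Of its 5329 exon bases, 3007 are shared with Pou2f1 on the other strand, a gene that was lower as well, with 55.3 ± 3.28 and 28.5 ± 2.36 CPM (SD, n = 3 each) and a log2 fold change of -0.96 (edgeR adjusted p 3.9e-05). The library kit marked strand, but the strand setting of the counting is not given in the sources used here, and the part of Pou2f1 in the counts of Cd247 was not tested.

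The CD3 chain genes lie side by side on chromosome 9 and were near 0 in both groups, with 8 counts as the highest value in any library. Cd3e (ENSMUSG00000032093, chr9:44998740-45009627), the chain that the lineage antibody recognises, had 8, 7 and 4 counts in Tespa1+/+ libraries and 0 in each Tespa1-/- library. The 19 counts against 0 gave a ratio of 0 (95% interval 0 to 0.315, counting error only). Set against a floor of 3 counts over the whole group, the 19 counts stood 4.31-fold higher. That figure leaves out the counting error of the 19 and is not a lower bound. The groups did not overlap, and the exact two-sided permutation test gave p = 0.1, the smallest p that 3 against 3 libraries allow. In the fit without the filter, Cd3e was called lower (edgeR adjusted p 0.00936), as it was in DESeq2 (adjusted p 0.0193). Cd3d (ENSMUSG00000032094, chr9:44981786-44987339) had 4, 4 and 0 counts in Tespa1+/+ and 1, 2 and 4 counts in Tespa1-/- libraries. The ratio of the sums, 8 and 7, was 1.29 (95% interval 0.397 to 4.06), and a difference was not detectable at this depth. Cd3g (ENSMUSG00000002033, chr9:44969572-44980431) had 0, 5 and 0 counts against 4, 3 and 0, with a ratio of 2.06 (95% interval 0.562 to 8.22). Counts of Cd3e were therefore absent from all 3 Tespa1-/- libraries while those of Cd3d and Cd3g were not, a difference between the chains that was not tested. Cd3e shares 135 exon bases with Gm48719 on the other strand.

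Themis (ENSMUSG00000049109, chr10:28668360-28883818), whose product regulates receptor signalling in thymocytes, had 13, 8 and 5 counts in Tespa1+/+ libraries and 0, 2 and 0 in Tespa1-/- libraries. The sums of 26 and 2 gave a ratio of 0.113 (95% interval 0.0130 to 0.452, counting error only). The groups did not overlap. Without the filter the log2 fold change was -3.02 (edgeR adjusted p 0.029), and DESeq2 gave -3.24 with an adjusted p of 0.0605, so that the call depended on the tool.

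Since levels of different genes can only be set side by side per length, the deposited FPKM values were used for the order within the machinery. In Tespa1+/+ LSKs this was Lcp2 (11.9 ± 0.126 FPKM), Lck (2.81 ± 0.154), Lat (2.44 ± 0.122), Zap70 (0.241 ± 0.0435), Cd247 (0.116 ± 0.0232), Cd3e (0.0716 ± 0.0266), Cd3d (0.0554 ± 0.0530), Themis (0.0263 ± 0.0149) and Cd3g (0.0152 ± 0.0264), each with SD and n = 3. From Cd247 downwards, the libraries of neighbours in this order overlapped. In Tespa1-/- LSKs Lcp2 (8.18 ± 0.304 FPKM) remained first, while Lat (1.52 ± 0.115) and Lck (1.43 ± 0.109) lay within their spread of each other. Cd3e was listed at 0. Transcripts of Lcp2, Lat and Lck were thus clearly counted in both groups, whereas those of the receptor chains and of Zap70 were close to the limit of detection. These are levels of RNA in bulk cells, and protein was not measured.

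Ratios within a library do not depend on its scaling. The count of Lck over that of Lcp2 was 0.200, 0.219 and 0.211 in Tespa1+/+ libraries and 0.171, 0.151 and 0.145 in Tespa1-/- libraries. The groups did not overlap (exact two-sided permutation test, p = 0.1, the smallest possible here), and Lck had therefore fallen further than Lcp2 in all 3 Tespa1-/- libraries. Lat over Lcp2 was 0.206, 0.186 and 0.207 against 0.175, 0.178 and 0.189, with overlap (exact permutation p = 0.2). Lck over Lat also overlapped, with 0.969, 1.18 and 1.02 against 0.977, 0.848 and 0.771 (exact permutation p = 0.2). Among 10820 well-counted genes, those whose profile over the 6 libraries was nearest to Lcp2 were Ubap2l, Ccnd2, Csnk2a3, Fbxo42 and Btg1, with root mean square differences of 0.0214 to 0.0232 on the log2 scale. With 2 groups that are far apart, such a likeness mostly restates a like fold change.

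Fold change was related to gene length over all genes tested, which were split into 10 bins of length. The bin of the shortest genes, with 427 exon bases at the median, had a median log2 fold change of 0.54, and that of the longest, with 11500 bases, had one of -0.56. The receptor genes lay in the middle of this range. Lat (2767 bases) and Lck (2929 bases) belong to a bin with a median of 0.19, Zap70 (2992 bases) to one with 0.07, Lcp2 (4459 bases) to one with -0.01 and Cd247 (5329 bases) to one with -0.12. All 5 were lower than the median of genes of their length. With a correction for length, in which 2344 of 15314 genes (15.3%) were called lower, the log2 fold changes were -0.99 for Lck, -3.45 for Zap70, -1.90 for Cd247, -0.72 for Lat and -0.38 for Lcp2, and 4 of these (all but Lcp2) were called lower.

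**Figure D2:**
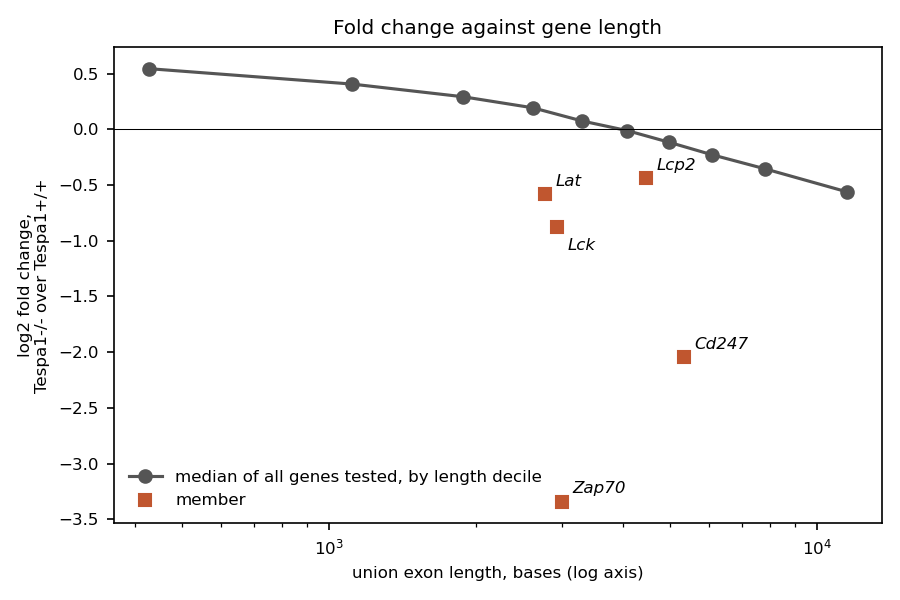
Log2 fold change (Tespa1-/- over Tespa1+/+) against union exon length in bases (log axis), with the median of all genes tested in each of 10 bins of length (grey line) and the 5 receptor genes tested (orange squares). The medians fall from 0.54 to -0.56 with length, and all 5 receptor genes lie below them.

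Many receptor genes have a homolog that does similar work in other blood cells, and 13 such homologs, all tested, were compared. ZAP70 shares its family only with SYK, which acts below immunoglobulin and Fc receptors. Syk was measured at 17.5 ± 0.352 FPKM in Tespa1+/+ and 12.5 ± 0.101 FPKM in Tespa1-/- LSKs, far above Zap70 in every library. Its log2 fold change was -0.39 (SE 0.03, edgeR adjusted p 3.1e-05), not a call, and with the length correction it was 0.04. Of the SRC family, which includes LCK, Lyn was the most abundant (12.8 ± 0.221 and 13.5 ± 0.116 FPKM) and rose slightly (log2 fold change 0.18, adjusted p 0.00263), below the fold needed for a call. Fyn, the second SRC kinase of T cells, was called lower (4.94 ± 0.153 to 2.16 ± 0.233 FPKM, log2 fold change -1.09, adjusted p 3.0e-05), as were Src (-3.72) and Blk (-2.16), a kinase of B cells. Fgr (1.25), a kinase of myeloid cells, was called higher. Yes1 had an adjusted p of 0.111. Src and Blk, with at most 6 counts in any Tespa1-/- library, passed the filter on low counts only through the Tespa1+/+ libraries, as Zap70 and Cd247 did, so that their lower values were built into the selection. Of the well-counted kinases of the family, Lck and Fyn were lower and Lyn was not.

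Among adaptors, Lat2 (log2 fold change -0.07, adjusted p 0.608) and Clnk (-0.18, adjusted p 0.124) did not pass the test, while Blnk, the adaptor of the B-cell receptor, fell from 1.09 ± 0.112 to 0.333 ± 0.0410 FPKM (-1.61, adjusted p 6.7e-05). With the length correction Clnk passed the adjusted p (-0.45, edgeR adjusted p 0.00397) without being called. Themis2, the homolog of Themis outside the T lineage, was at 17.6 ± 0.849 and 12.99 ± 0.871 FPKM (-0.34, adjusted p 0.00343), far above Themis in both groups. Fcer1g and Tyrobp, which encode signalling chains with tyrosine motifs like CD247, were at 23.4 ± 0.645 and 43.8 ± 0.538 FPKM in Tespa1+/+ LSKs. They rose by log2 fold changes of 0.35 and 0.40 (adjusted p 0.00246 and 0.00202), under the fold needed for a call, and lay at -0.05 each with the length correction. In all, 4 of 13 homologs were called lower and 1 higher, beside 19.2% and 14% of all genes, and their median log2 fold change was -0.34.

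**Figure D3:**
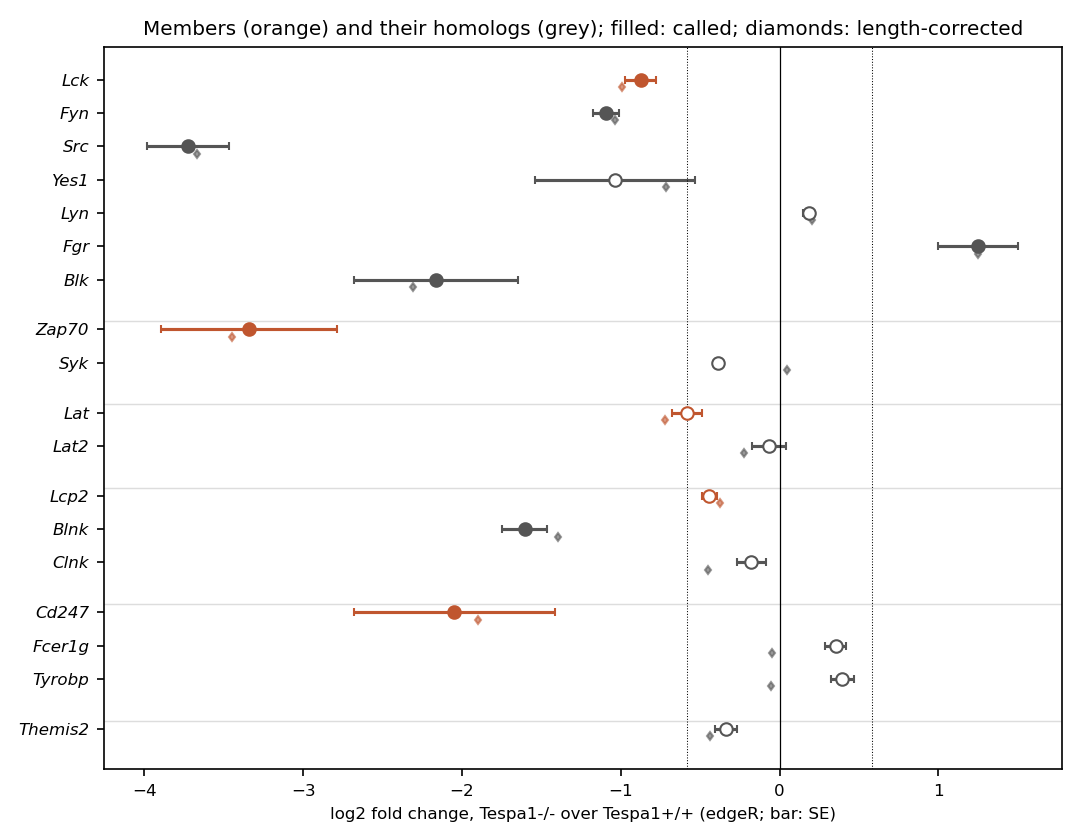
Log2 fold changes (Tespa1-/- over Tespa1+/+, edgeR, with SE) of the receptor genes tested (orange) and of their homologs (grey), each receptor gene above its own homologs; Themis was not tested. Filled points are called, dotted lines mark a fold of 1.5 and diamonds give length-corrected values; Zap70 stands at -3.34 above Syk at -0.39.

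Further genes of the pathway were taken from a list of 40, of which 32 were tested. Of these, 12 were called lower and 0 higher, beside 19.2% and 14% of all genes, and their median log2 fold change was -0.47. At the adjusted p alone, 18 were lower and 3 higher (31.8% and 31.5% of all genes). Of the co-receptors and accessory receptors, Cd28 (-2.72), Cd4 (-2.18) and Cd8a (-0.96) were called lower. Cd28 and Cd4 passed the filter on low counts only through the Tespa1+/+ libraries. Their lower values were thus built into the selection and into the count of 12. Cd28 had counts of 70, 98 and 59 against 13, 9 and 2. Cd4, with at most 29 counts in a library, lost its call without Tespa1-/- replicate 2 (adjusted p 0.0539). Cd5 and Cd6, which restrain the receptor, were not called (-0.65 and 0.15), and neither were the phosphatases Ptprc (CD45, -0.32), Ptpn6 (SHP-1, 0.20) and Ptpn22 (0.10). With the length correction the phosphatases were still not called. Ptprc then changed direction (0.39, edgeR adjusted p 0.0450), Ptpn22 was at 0.38 (adjusted p 0.00257) and Ptpn6 at 0.07.

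Of the kinases and their regulators, Fyn was called lower, and Csk (-0.16) and Pag1 (-0.49), which hold LCK inactive, were not. Among adaptors, Grap2 (-1.17), which ties SLP-76 to LAT, and Lax1 (-0.85) were called lower. Grap2 lost its call without Tespa1+/+ replicate 3 (adjusted p 0.0524). The exchange factor Vav1 had a log2 fold change of 0.10. Grb2 was not called (0.55, adjusted p 0.104), but 1 Tespa1+/+ library stood apart, with 2966 counts in replicate 3 against 1768 and 3255 in the deeper replicates 1 and 2. Without that library Grb2 was called higher (0.97, adjusted p 3.54e-05).

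Downstream, the phospholipase Plcg1 (-0.92), the RAS exchange factor Sos1 (-0.81) and the ubiquitin ligase Cbl (-1.05) were called lower. With the length correction none of them was, at -0.58, -0.32 and -0.49. Of the protein kinase C theta and NFAT arm, Prkcq (-1.33), Nfatc1 (-0.76) and Nfatc2 (-1.45) were called lower, and Bcl10 (0.26) and Malt1 (-0.20) were not. Nfatc1 was no longer called with the length correction (-0.44). In total 8 of the 32 were then called lower and 1, Ubash3a (0.59), higher, where 15.3% and 8.03% of all genes were.

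**Figure D4:**
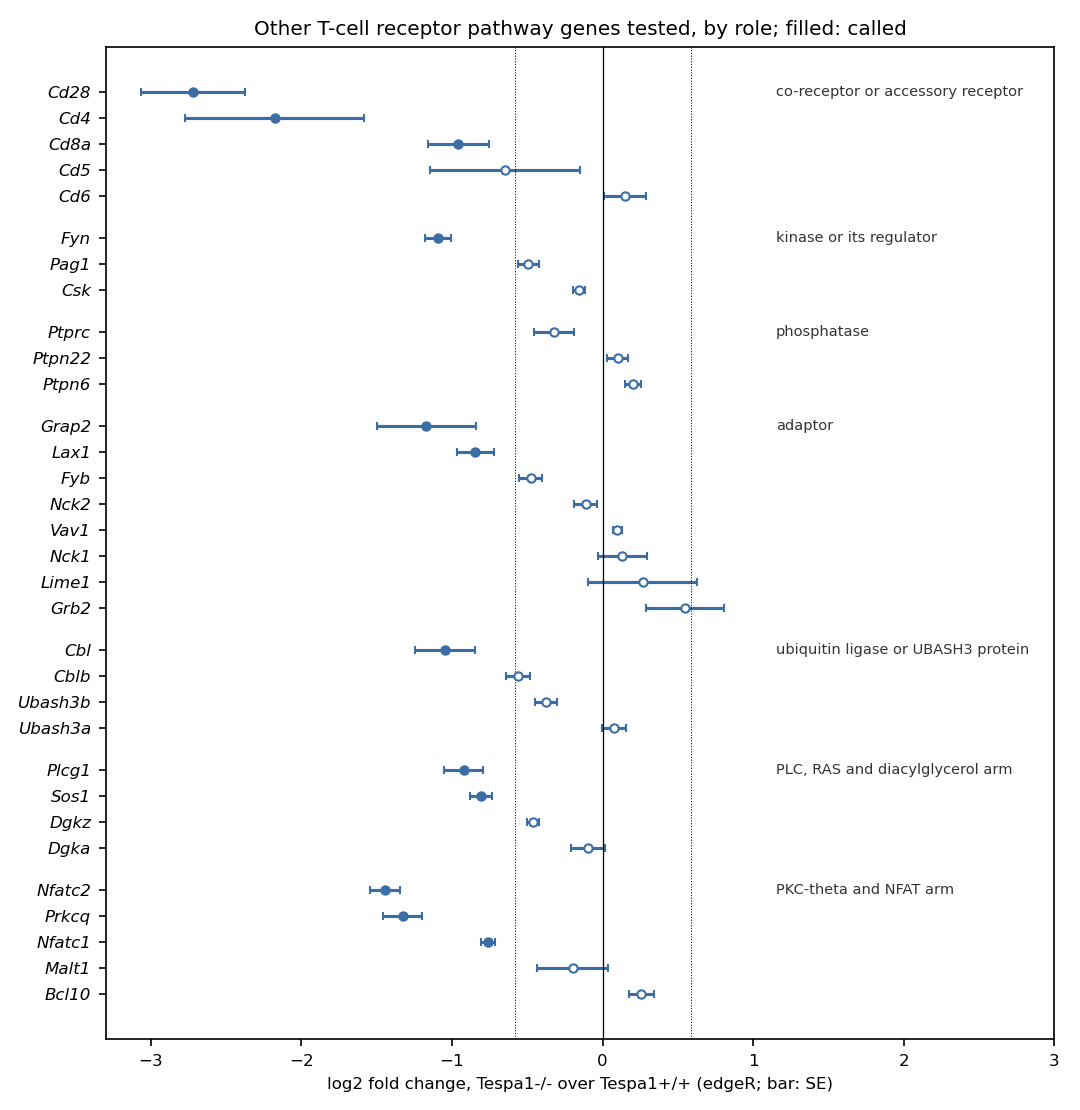
Log2 fold changes (Tespa1-/- over Tespa1+/+, edgeR, with SE) of the 32 other pathway genes tested, grouped by role. Filled points are called and dotted lines mark a fold of 1.5; calls, all lower, occur in each role but the phosphatases, and Cd28 has the largest fall (-2.72).

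Since LSKs are sorted as negative for lineage markers, transcripts of mature cells and of lymphoid progenitors were counted as well. In bulk RNA, fewer cells of a type and less RNA per cell cannot be told apart. Constant region genes of the T-cell receptor were near 0. None of the 8 could be tested, Ptcra had 0 counts in every library, and Trac had 4, 8 and 2 counts against 0, 0 and 4. Their summed level was 2.02 to 3.23 CPM in Tespa1+/+ and 0.895 to 1.21 CPM in Tespa1-/- libraries. Of 16 T-cell markers, some of which are pathway genes named above, 9 were tested and 6 were called lower, beside 19.2% of all genes (22.1 to 23.2 against 10.4 to 12.9 CPM in sum). Of these 6, Tcf7 (-1.22) and Lef1 (-1.46) also belong to the genes of T-lineage entry and are counted again in that list below. Also among the 6, Cd28, Cd4 and Icos passed the filter on low counts only through the Tespa1+/+ libraries, so that their lower values were built into the selection. The 12 NK and innate lymphoid markers gave 4 genes that could be tested, of which Klrk1 (-0.90) and Il2rb (-1.07) were called lower and Nkg7 (0.71) higher. The groups overlapped for Klrk1 (adjusted p 0.0442), which lost its call with DESeq2, with glmTreat, with both length corrections and without any of 4 single libraries (Tespa1+/+ replicates 1 and 3 and Tespa1-/- replicates 1 and 2, adjusted p 0.107 to 0.119). Nkg7 was not called with the length correction (0.31). Ncr1 had 5 counts in 1 Tespa1+/+ library and 0 elsewhere.

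Genes of lymphoid progenitors were more abundant in sum than the receptor genes and were lower in the same libraries. Of 12 genes of T-lineage entry, 10 were tested and 8 called lower, where 19.2% of all genes were. Among them were Notch1 (-1.75), Flt3 (-1.01), Satb1 (-1.44), Gata3 (-1.94) and Il7r (-1.75). The sum of the list was 605 to 617 CPM in Tespa1+/+ and 236 to 240 CPM in Tespa1-/- libraries. Most of it was Notch1 (means of 260 against 77.5 CPM) and Flt3 (226 against 112 CPM), whereas Gata3 and Il7r had means of 5.01 and 4.28 CPM in Tespa1+/+ libraries. Ccr9, also called lower, passed the filter on low counts only through the Tespa1+/+ libraries. It was not called with the length correction (-0.91, adjusted p 0.0893), nor with glmTreat (adjusted p 0.108). With the length correction Notch1 (-1.12), Flt3 (-0.78), Satb1 (-0.71), Gata3 (-1.93) and Il7r (-1.67) were still called lower. Of 12 B-lineage markers, 10 were tested and 8 called lower, with Dntt (-2.25), Rag1 (-2.97) and Pax5 (-2.36) among them (213 to 224 against 72.9 to 78.8 CPM in sum). Pax5 had counts of 156, 309 and 127 against 32, 40 and 6, and passed the filter on low counts only through the Tespa1+/+ libraries. Its lower value was thus built into the selection and into the count of 8. Cd79b (0.27, adjusted p 0.00919) lay higher in every Tespa1-/- library without being called, and was at -0.04 with the length correction. Mast cell and basophil markers, of a lineage that uses LAT and SLP-76, gave 2 lower calls (Gata2 -0.91 and Ms4a2 -1.33) among 6 tested (183 to 219 against 145 to 167 CPM in sum). Mcpt8 (0.58, adjusted p 0.00107) and Fcer1a (0.76, adjusted p 0.0552) of this list lay higher in every Tespa1-/- library without being called. Megakaryocyte and platelet markers gave 3 lower calls among 7 tested, including Vwf (-2.32), while Gp6 had 0 counts in all libraries (110.0 to 117 against 68.6 to 72.9 CPM in sum). The calls of Gp1ba (-1.17) and Gp1bb (-1.01) were not stable. Both were lost with glmTreat (adjusted p 0.104 and 0.191) and without Tespa1-/- replicate 1 (edgeR adjusted p 0.0521 and 0.0865). Gp1bb was also lost with DESeq2 (adjusted p 0.0806) and without Tespa1+/+ replicate 3 or Tespa1-/- replicate 2. The part of any of these populations in the lower levels of Lck, Lat and Lcp2 was not tested. For Zap70, Cd247 and Themis the counts are too few to set against any list.

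**Figure D5:**
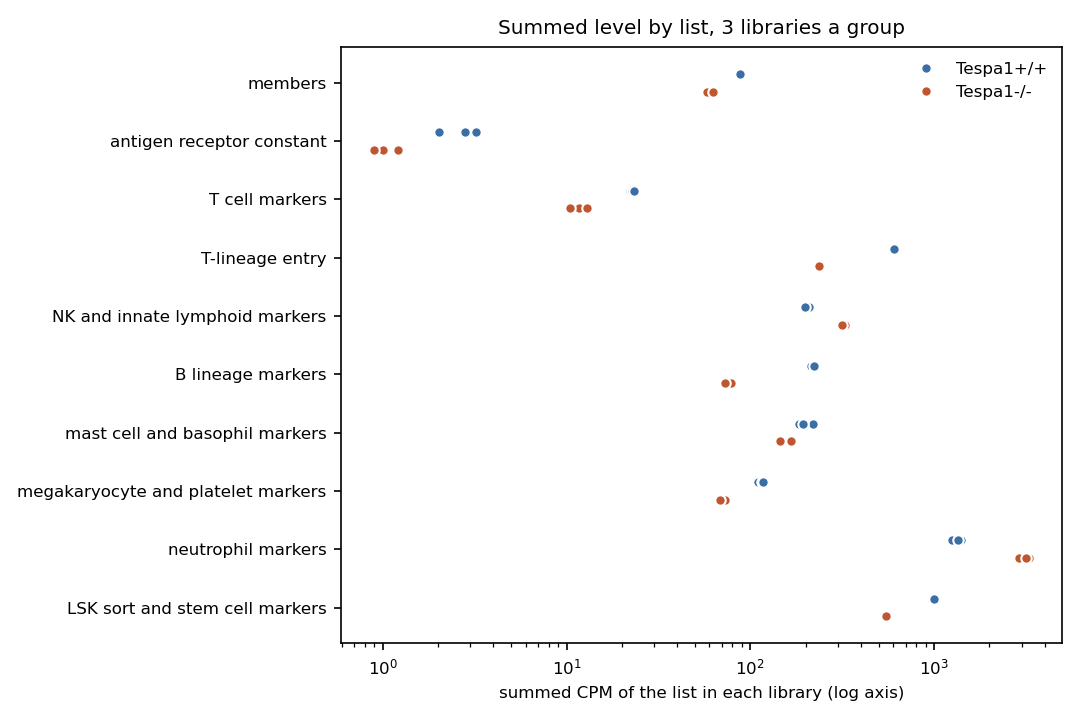
Summed CPM (log axis) of the 9 receptor genes (members) and of 9 marker lists in each library, Tespa1+/+ in blue and Tespa1-/- in orange. The antigen receptor constant genes lie between 0.895 and 3.23 CPM in all libraries, and every list is lower in all Tespa1-/- libraries but for neutrophil markers and for NK and innate lymphoid markers, a sum made up mostly of Nkg7.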

How the data were processed

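RNA-seq of sorted LSKs from irradiated mice (3 Tespa1+/+ and 3 Tespa1-/- libraries, numbered in the labels) was analysed from 1 deposited table on the GRCm38 build. Libraries were poly(A)-selected with a stranded kit. The submitters' processing notes name CASAVA 1.8, HISAT2, StringTie and edgeR. Which tool counted, with which annotation and strand setting, is not given in the sources used here. The deposited counts are whole numbers of fragments per gene, with no normalization. The deposited FPKM values were scaled by the authors for gene length and library size. All per-sample columns were mapped.

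Genes were kept with filterByExpr (minimum count 10), scaled by TMM and tested with edgeR 4.0.16 in R 4.3.3 (quasi-likelihood F-test, 6 libraries, no covariates), with Benjamini-Hochberg adjustment over 15332 genes. The SE of a log2 fold change was derived from its F statistic. A call needed a fold over 1.5 with an adjusted p under 0.05. Intervals of count ratios were exact binomial (95%), and a floor of 3 counts was used for a sum of 0. The intervals cover counting error only, because they were computed on counts summed over the libraries of each group and leave out the spread between libraries. No molecular identifiers were used and reads can be PCR copies, so that even the counting error can be understated. The floor does not cover the counting error of the other group. Union exon lengths and overlaps came from GENCODE M21. The length correction used a robust loess (span 0.5) of log2 CPM deviations on log2 length as an edgeR offset. A least-squares loess, which shifted the median of all genes to 0.11 against 0.02 with the robust one, was added as an alternative after the data were seen. A simulation with 200 changed genes served as a check of the code. Without a length trend, edgeR recovered 100% of these genes and made 3 false calls. With a simulated length trend it recovered 91.5% and made 2774 false calls. The length correction then gave 100% and 7 false calls. How many of the uncorrected calls in these libraries are false in this way was not tested.

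Alternatives were RLE or total counts, other filters, DESeq2 1.42.0, glmTreat, an unadjusted p, a replicate block, limma-trend (limma 3.58.1) on log2(FPKM + 1) or log2(FPKM + 0.1) for genes with FPKM of at least 1 in 3 libraries, the length corrections and leaving out each library. Named were all 9 receptor genes, Tespa1, every gene of short lists, and from longer lists genes called without overlap and with a mean count of at least 10. Pathway genes without a call and genes whose call hung on 1 library were named after their values were seen. From marker lists up to 4 of the highest counts and defining genes at 0 were named. Genes, lists and rules were chosen with earlier results of these data known. Protein sequences were not analysed here, and 4 genes left out of the lists and their counts are not reported here.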

Additional observations from a re-analysis of the deposited data

How the results depend on the processing

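Leaving aside the sizes of Zap70 and Cd247, the fold changes of the receptor genes tested changed little with the processing. The call of Lat did depend on it, with log2 fold changes from -0.72 to -0.45. Beside the settings named above, Lat was called lower with at least 10 counts in every library and with the replicate block. It was also called with limma-trend on log2(FPKM + 0.1), the least-squares length correction, and without Tespa1+/+ replicate 2 or Tespa1-/- replicate 3. Over 18 alternatives, the log2 fold change of Lck ranged from -0.99 to -0.65 and that of Lcp2 from -0.54 to -0.28. Zap70 and Cd247 could be estimated in 15 of them. No direction of the 5 receptor genes tested reversed where it was estimated. Testing against a fold of 1.5 (glmTreat) took 3 below the threshold, Cd247 (-2.05, adjusted p 0.0978), Lat (-0.58, adjusted p 0.775) and Lcp2 (-0.44, adjusted p 1). Leaving out single libraries gave -3.55 to -1.48 for Cd247. Called lower were 3 receptor genes, 5 without the filter (adding Cd3e and Themis), 5 with DESeq2 (adding Cd3e and Lat), and 1 (Lck) with limma-trend on log2(FPKM + 1), whose filter removes genes near 0.

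The replicate numbers did not pair the libraries, since libraries of the same number deviated from their group means with correlations of -0.073, -0.078 and 0.014. With the number as a replicate block, Cd247 was at -2.08 with an adjusted p of 0.0642, and the other 4 receptor genes tested stayed past the threshold.

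Higher genes numbered 2148, against 1020 with glmTreat, 1070 and 1365 with limma-trend on log2(FPKM + 1) and log2(FPKM + 0.1), 1229 with the length correction and 2078 to 2246 without single libraries. Lower genes numbered 2951, against 1807 with glmTreat, 1626 with limma-trend on log2(FPKM + 1) and 2716 to 2885 without single libraries. Total counts shifted the median log2 fold change of all genes to -0.10. The share of higher genes among calls went from 42.1% to 29.8% with total counts and to 34.4% with the length correction.

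Other pathway genes called lower numbered 12, against 6 and 7 with limma-trend on log2(FPKM + 1) and log2(FPKM + 0.1), 8 with the length correction, 7 with its least-squares form, and 11 to 14 without single libraries. Called higher were 0, against 1 with the length correction, 2 with its least-squares form and 0 to 1 without single libraries. Homologs called higher numbered 1 (Fgr), against 0 with limma-trend at either pseudocount. Homologs called lower numbered 4, against 2 with at least 10 counts in every library and 1 with limma-trend at either pseudocount. Where the construction of an alternative does not show it, the cause was not tested. Depth limits the CD3 chains, Themis, Zap70 and Cd247, for which 1 to 8 counts decide a value.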
